A study of Mus musculus with 8 samples.

Results

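Livers of mice without hepatic Xbp1 were compared with livers of flox controls, both on regular chow. Mice of genotype Xbp1flox served as controls and mice of genotype Xbp1-/- as knockouts, on the C57BL/6 strain, and both cohorts ate chow for 4 weeks, the feeding period that the labels give for the study. Each cohort held 4 mice whose liver RNA was pooled into 2 libraries, so 4 of the 8 libraries of the series are described here, and the other 4 came from the same genotypes on a diet rich in fat plus an equivalent of high-fructose corn syrup, called the high-fat diet. The sources used here do not give the age and sex of the mice or the Cre driver of the deletion. The comparison used 1 deposited value per gene and group in RPKM, reads scaled by transcript length and by the number of mapped reads, so no difference has a replicate check and no test, standard deviation or p-value can be given. Of 22923 gene symbols, 9929 had at least 1 RPKM in either group and were not listed at 0 in either, and these are the genes compared. Changes are log2 ratios of knockout over flox after adding 1 RPKM to both, which understates the change of low genes, and a gene rose or fell where that ratio reached 1 in size (2-fold).

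XBP1 is a transcription factor that acts in the unfolded protein response, the set of pathways by which a cell adjusts its endoplasmic reticulum (ER) to the load of proteins being folded there. The ER membrane sensor IRE1 is both a kinase and a ribonuclease. It cuts a short intron out of Xbp1 mRNA, which shifts the reading frame and gives the active factor, and it can also cut and so destroy other mRNAs at the ER. In hepatocytes, which secrete most plasma proteins and lipoproteins, XBP1 is known as a regulator of ER chaperone genes and of lipid synthesis.

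The piece of Xbp1 mRNA that IRE1 recognises is shown because it defines the pathway studied. It lies in exon 4 of 5, within the coding sequence of transcript Xbp1-201 in GENCODE M21 (GRCm38 chr11:5524276-5524308, plus strand), and was found as a pair of CNGCAGC loops whose cut points are 26 bases apart. The sequence is printed 5′ to 3′, and capitals mark the 26 bases removed.
Xbp1 IRE1 site: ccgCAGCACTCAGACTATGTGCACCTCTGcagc

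The targeted gene was lower in the knockout. Xbp1 (chromosome 11, 5520659 to 5525893, plus strand) was measured at 112 RPKM in flox livers and at 44.2 RPKM in the knockout, which held 39.6% of the flox level (log2 change -1.32). The value counts reads over the whole gene, including any exon left after the deletion, and reads from liver cells in which the gene was not deleted. Ern1, the gene of IRE1, had 3.86 RPKM in flox and 4.69 RPKM in the knockout (log2 change 0.23). In bulk liver, fewer cells of a type and less RNA per cell cannot be told apart, here and in every value that follows.

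Both groups had the profile of liver. Of 13 hepatocyte markers compared, Apoa1 was at 12127 and 7301 RPKM in flox and knockout and Ttr at 5347 and 4418 RPKM, while Alb was listed at 0 in both groups, as a failed estimate can be. All deposited values added up to 513694 RPKM for flox and 461392 RPKM for knockout livers, and the 50 most abundant genes held 39.1% and 39.0% of those sums. The depth of the libraries is unknown. Another 14 genes with at least 1 RPKM in a group were left out because the other group was listed at 0. Among them, 12 were small RNA genes, and the others were Serpina1b (0 and 6623 RPKM in flox and knockout) and Serpina1d (0 and 4706 RPKM), members of a family of near-identical alpha-1-antitrypsin genes among which reads can be split. A further 12980 symbols were under 1 RPKM in both groups.

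The loss of Xbp1 went with more falls than rises. In all, 141 of 9929 genes fell (1.42%) and 26 rose (0.262%), with 9762 on neither side. Most genes changed little: the median log2 change was -0.02, and the 5th and 95th percentiles were -0.52 and 0.29. By any amount, 5481 of 9929 genes (55.2%) were lower, the share beside which later counts of lower or higher genes stand. Rescaling the groups to equal sums, with the 50 most abundant genes left aside, multiplied the knockout values by 1.11, moved the median by 0.13 and left 37 rises and 105 falls. Falls were most frequent among abundant genes, and the added 1 RPKM damps the changes of the lowest class. Of 4252 genes with a mean under 5 RPKM 0.376% fell, of 3332 genes between 5 and 20 RPKM 0.960%, of 1656 genes between 20 and 100 RPKM 3.62%, and of 689 genes from 100 RPKM upwards 4.79%.

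**Figure D1:**
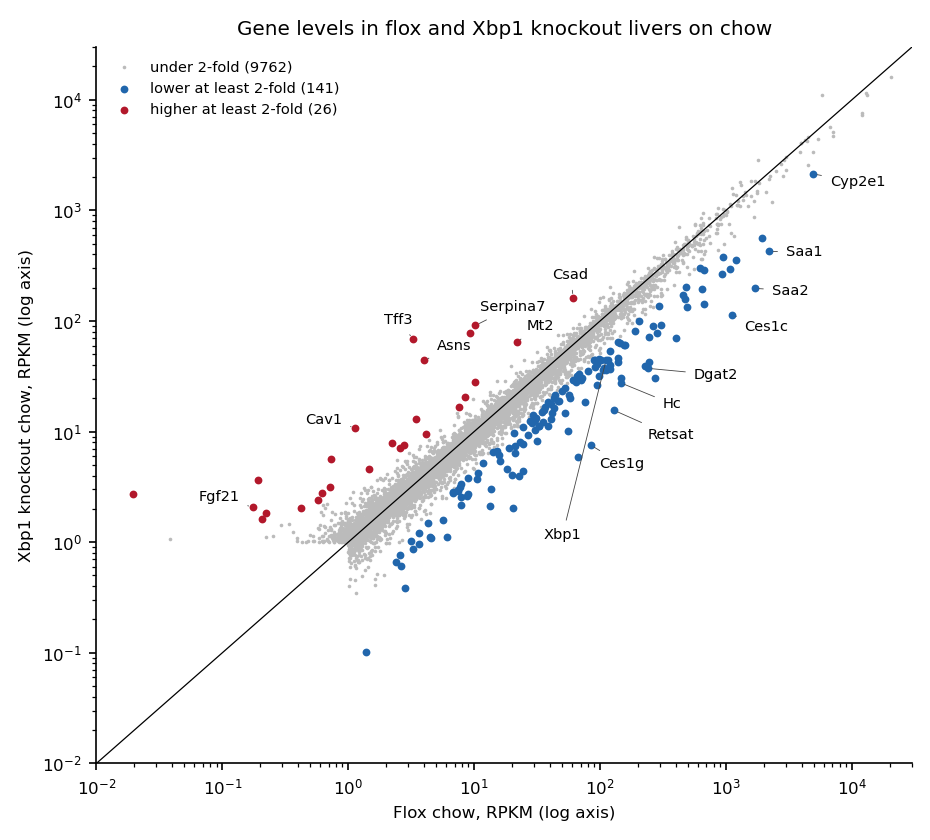
Each point is 1 of 9929 genes, with its RPKM in flox livers on the x axis and in knockout livers on the y axis, both on log axes, and the line marks equal levels. The 141 blue points (lower at least 2-fold on the log2(RPKM + 1) scale) outnumber the 26 red ones (higher) and reach up to Cyp2e1 at 4912 and 2138 RPKM, while every red point but Csad lies at 21.7 RPKM or less in flox livers.

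The genes nearest to the threshold, of those with at least 20 RPKM in a group, show how sharp it is. Spp2, Slc25a17 and the translocon gene Sec61a1 lay just inside it as falls, with log2 changes of -1.003, -1.01 and -1.01. Just outside it were H47 (-0.99), the haptoglobin gene Hp (-0.98) and Pzp (-0.98). On the other side, Moxd1 (1.18), Rgs16 (1.36) and Csad (1.39) were the nearest rises with at least 20 RPKM in a group, and Spp1 (0.97), Mup20 (0.91) and Snhg6 (0.88) the nearest genes that did not pass.

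Genes of the ER and the secretory pathway were lower in knockout livers across all steps from translocation to export. In 11 lists that together hold 173 compared genes, 25 fell, 0 rose and 157 were lower by any amount, with a median log2 change of -0.41. Over all genes 1.42% fell, 55.2% were lower by any amount and the median was -0.02. The folding machinery and the translocon held most of the falls, and the coats that carry proteins onwards to the Golgi held none. The falls numbered 13 after the rescaling to equal sums and 12 with a pseudocount of 5 RPKM, since many lay close to 2-fold.

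The HSP70 and HSP90 class of ER chaperones and their co-chaperones was the lowest of the 11 lists. All 15 members were lower and 9 fell (median -1.06). Hspa5, which encodes BiP, the main ER chaperone, went from 204 RPKM in flox livers to 99.8 RPKM in the knockout (log2 change -1.02). Hyou1, a nucleotide exchange factor of BiP, went from 24.2 to 7.72 RPKM (-1.53). BiP works with J-domain partners that hand it unfolded proteins, and 3 of their genes fell together with it. Dnajb9 went from 32.9 to 11.3 RPKM (-1.46), Dnajb11 from 36.6 to 16.6 RPKM (-1.10) and Dnajc3 from 43.3 to 20.2 RPKM (-1.06). Other J-domain genes of the ER lists did not pass, namely Dnajc1 (-0.24), Dnajc10 (-0.47) and Sec63 (-0.51). Sdf2l1, a partner of Dnajb11, went from 35.4 to 12.2 RPKM (-1.46). The remaining fallers were Cnpy3 (-1.40), Creld2 (-1.21) and Manf (-1.14), the last a secreted ER stress protein. The ER HSP90 gene Hsp90b1 did not pass (215 and 154 RPKM, -0.48), nor did Sil1, the other exchange factor of BiP (33.8 and 16.8 RPKM, -0.97).

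Genes of oxidative folding differed among themselves. Of 17 protein disulfide isomerases and oxidases, 5 fell, and the median was -0.37. P4hb, the founding disulfide isomerase and among the most abundant ER genes here, went from 476 to 157 RPKM (-1.60), and Erp44, which retains oxidases in the ER, from 38.6 to 11.3 RPKM (-1.69). Txndc5 (-1.21), Pdia6 (-1.03) and Txndc11 (-1.01) fell as well. Other members stayed near their flox level: Pdia5 was listed at 24.6 and 23.1 RPKM, Tmx1 at 12.3 and 13 RPKM, and Txndc12 at 27.6 and 29.2 RPKM. Ero1lb, an oxidase that recharges the isomerases, was at 13 and 6.45 RPKM (-0.91), while its relative Ero1l was at 5.34 and 4.42 RPKM (-0.23).

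Of 11 lectin chaperones, glucosidases and prolyl isomerases, 1 fell. It was Uggt1, the sensor that reglucosylates misfolded glycoproteins (6.81 and 2.81 RPKM, -1.04). The lectin chaperones that bind its product did not pass, with Calr at 453 and 332 RPKM (-0.45) and Canx at 69.6 and 52.2 RPKM (-0.41). The list had a median of -0.45.

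Entry into the ER followed the same direction. In the list of the Sec61 channel and signal recognition, 4 of 19 genes fell and 18 were lower (median -0.51). The fallers were the 3 channel subunits and Tram1, a membrane protein that assists insertion. Sec61b went from 157 to 60.3 RPKM (-1.37), Sec61g from 116 to 44.6 RPKM (-1.36) and Sec61a1 from 43.7 to 21.2 RPKM (-1.01). The signal recognition particle, which brings ribosomes to the membrane, was closer to its flox level: Srp9 at 43.1 and 28.8 RPKM (-0.56) was its lowest listed subunit, and Srp14 was at 37.8 and 38.7 RPKM (0.03). Signal peptidase, which trims the signal sequence, had all 5 members lower and 1 fall, in the catalytic subunit gene Sec11c (24.3 and 11.1 RPKM, -1.06), while the alternative catalytic subunit Sec11a was at 41.2 and 34.0 RPKM (-0.27).

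N-glycosylation split by step. In the oligosaccharyltransferase, the complex that moves the finished glycan onto the protein, 11 of 12 genes were lower and 3 fell (median -0.77): Rpn1 (30.5 and 10.4 RPKM, -1.47), Ostc (-1.07) and Ddost (-1.06). Of its alternative catalytic subunits, Stt3a stood at 31.7 and 18.0 RPKM (-0.78) and Stt3b at 17.7 and 14.1 RPKM (-0.31). Magt1, another subunit, was at 16.5 and 7.75 RPKM (-0.998), just short of the threshold. Of 19 genes that build the lipid-linked glycan beforehand, 0 fell, 16 were lower and the median was -0.30.

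Disposal and export shifted by smaller amounts. All 22 genes of ER-associated degradation, which sends misfolded proteins to the proteasome, were lower (median -0.38), but 1 fell, Derl3 (7.42 and 2.92 RPKM, -1.10). Syvn1, the ubiquitin ligase of the pathway, was at 22.1 and 14.9 RPKM (-0.54), and the mannosidase-like Edem1 at 22.5 and 11.2 RPKM (-0.95). Among 24 genes of the COPII coat and its cargo receptors 22 were lower and 0 fell (median -0.35), and among 18 genes of the COPI coat and Golgi tethers 17 were lower and 0 fell (median -0.37). The proteasome itself, a cytosolic machine, had 0 of 37 genes past the threshold and a median of -0.03, and 43 cytosolic ribosomal protein genes had 0 and a median of 0.03. The sign of the proteasome median turned positive under the rescaling to equal sums (0.12), and the medians of all 11 ER lists stayed negative under both rescalings.

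**Figure D2:**
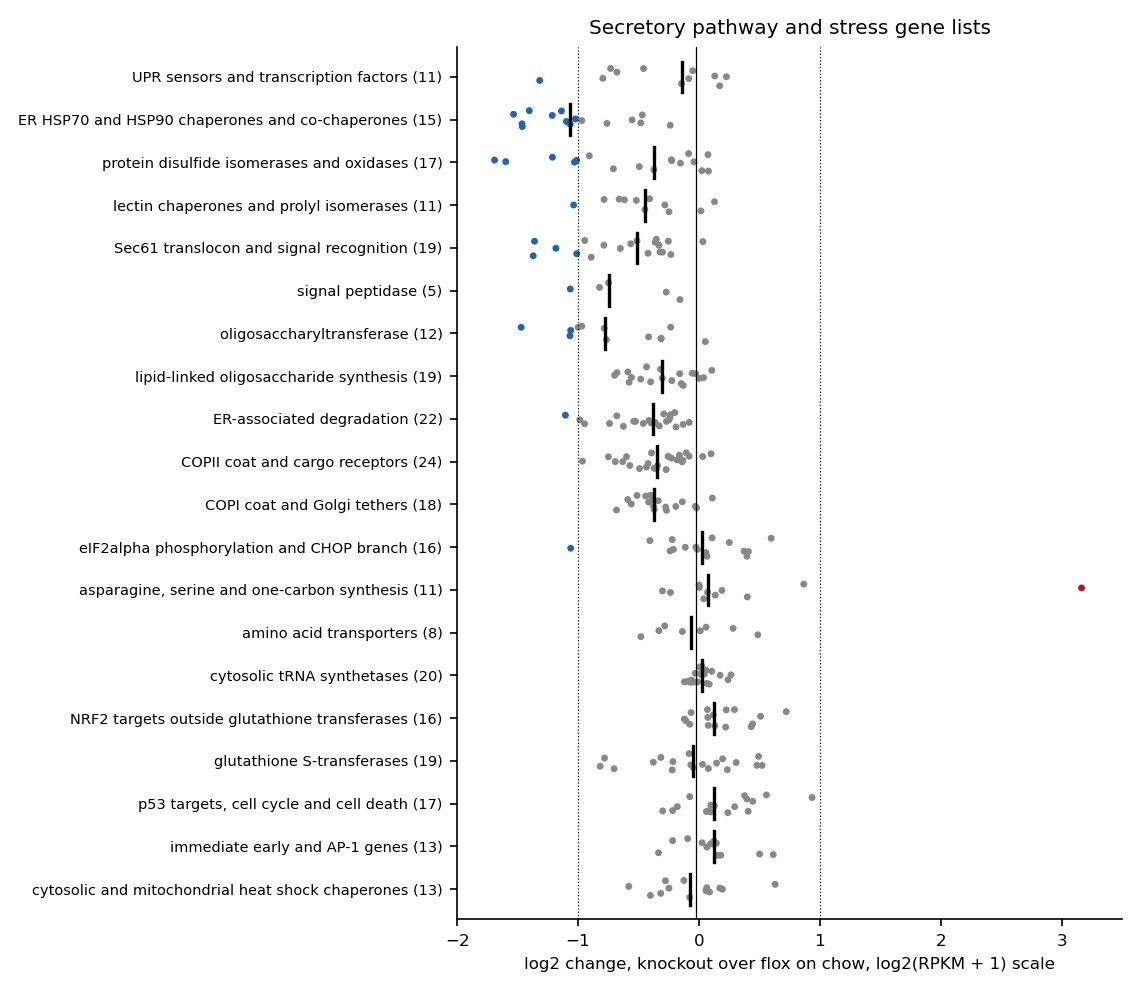
Each point is the log2 change (knockout over flox on chow) of a gene, by list, with the number of genes compared in brackets, thick bars for list medians, dotted lines at 2-fold and a thin line at the median of all genes. Blue points fell and the red one rose: the ER chaperone list has its median at -1.06, while stress lists lie around 0 with Asns alone past the threshold on the right.

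Promoters of the ER genes were searched for the ER stress response element (ERSE), a sequence known to be bound by XBP1 and ATF6 together with NF-Y. The letters searched were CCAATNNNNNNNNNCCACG on both strands, in 300-base windows around RefSeq gene starts (250 bases before and 50 after, GRCm38.p6). Windows were matched for 7976 of the 9929 genes, 16 of which held the element (0.201%), as did 39 of all 32851 windows (0.119%). Of the 109 fallers with a window 6 held it (5.50%), and of the 18 risers 0. By list, 11 of 143 ER genes with a window held it (7.69%), namely 5 of the 19 that fell (26.3%) and 6 of the 124 that did not pass (4.84%), and 1 of the 90 fallers outside the ER lists (1.11%). The upstream 250 bases of the 5 ER genes that fell and held the element are printed 5′ to 3′ on the gene's strand, with the element in capitals. They are Hspa5 (chr2:34771840-34772089, plus strand), Pdia6 (chr12:17266339-17266588, plus strand), Dnajc3 (chr14:118937682-118937931, plus strand), Creld2 (chr15:88819396-88819645, plus strand) and Derl3 (chr10:75893148-75893397, plus strand). The element starts at position -65 in Hspa5, -98 in Pdia6, -105 in Dnajc3, -126 in Creld2 and -156 in Derl3, counted from the gene start, and in Creld2 and Derl3 it is read on the opposite strand.
Hspa5: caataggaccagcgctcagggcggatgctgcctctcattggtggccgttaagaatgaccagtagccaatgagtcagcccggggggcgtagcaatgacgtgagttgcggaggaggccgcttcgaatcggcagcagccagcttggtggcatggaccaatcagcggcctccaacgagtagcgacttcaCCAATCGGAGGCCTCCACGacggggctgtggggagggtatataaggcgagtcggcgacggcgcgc
Pdia6: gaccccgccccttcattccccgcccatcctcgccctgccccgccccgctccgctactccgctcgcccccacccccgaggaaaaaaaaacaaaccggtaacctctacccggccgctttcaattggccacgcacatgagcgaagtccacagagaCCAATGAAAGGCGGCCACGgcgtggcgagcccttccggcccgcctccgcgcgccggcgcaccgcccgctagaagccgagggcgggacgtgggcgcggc
Dnajc3: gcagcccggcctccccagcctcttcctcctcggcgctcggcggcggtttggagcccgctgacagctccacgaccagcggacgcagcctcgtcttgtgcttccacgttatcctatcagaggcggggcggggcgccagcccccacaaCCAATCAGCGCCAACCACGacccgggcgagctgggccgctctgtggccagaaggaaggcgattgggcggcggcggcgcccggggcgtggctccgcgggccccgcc
Creld2: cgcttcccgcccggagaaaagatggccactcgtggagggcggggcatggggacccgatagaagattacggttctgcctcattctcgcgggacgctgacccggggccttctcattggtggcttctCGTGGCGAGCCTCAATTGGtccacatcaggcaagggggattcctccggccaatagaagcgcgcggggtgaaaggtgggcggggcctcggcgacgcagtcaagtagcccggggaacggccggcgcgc
Derl3: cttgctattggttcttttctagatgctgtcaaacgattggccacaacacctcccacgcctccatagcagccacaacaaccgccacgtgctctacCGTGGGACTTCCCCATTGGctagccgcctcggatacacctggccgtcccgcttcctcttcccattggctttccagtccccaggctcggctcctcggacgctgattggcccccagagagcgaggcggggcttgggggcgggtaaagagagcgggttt

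Of the 16 genes with the element, 15 were lower in knockout livers, 6 fell and 0 rose, with a median of -0.73. Over all 7976 genes with a window, 109 fell and the median was -0.02. The faller outside the ER lists was Acacb, acetyl-CoA carboxylase 2, which went from 7.92 to 2.18 RPKM (-1.49). Several of the most familiar ER genes with the element did not pass: Hsp90b1 (-0.48), Calr (-0.45) and Canx (-0.41). The exception in direction was Acnat2, a peroxisomal acyltransferase gene (log2 change 0.19). The 6 falls lay between -1.49 and -1.02, close to the threshold, and the count was 2 after rescaling to equal sums and 0 with a pseudocount of 5 RPKM.

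The shorter element ERSE-II (ATTGGNCCACG, both strands) was found in the windows of 8 genes, of which 7 were lower and 1, Dnajb11, fell. The core CCACGT (both strands), which overlaps an ERSE that is followed by T, was common and gave another picture. It was in the windows of 1085 of 7976 genes (13.6%) and in 8.31% of all windows, and those genes had a median of -0.04 with 16 falls and 1 rise. Among ER genes 34.3% held the core. A match is a match of letters only, and no match says only that the letters are not in the window.

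**Figure D3:**
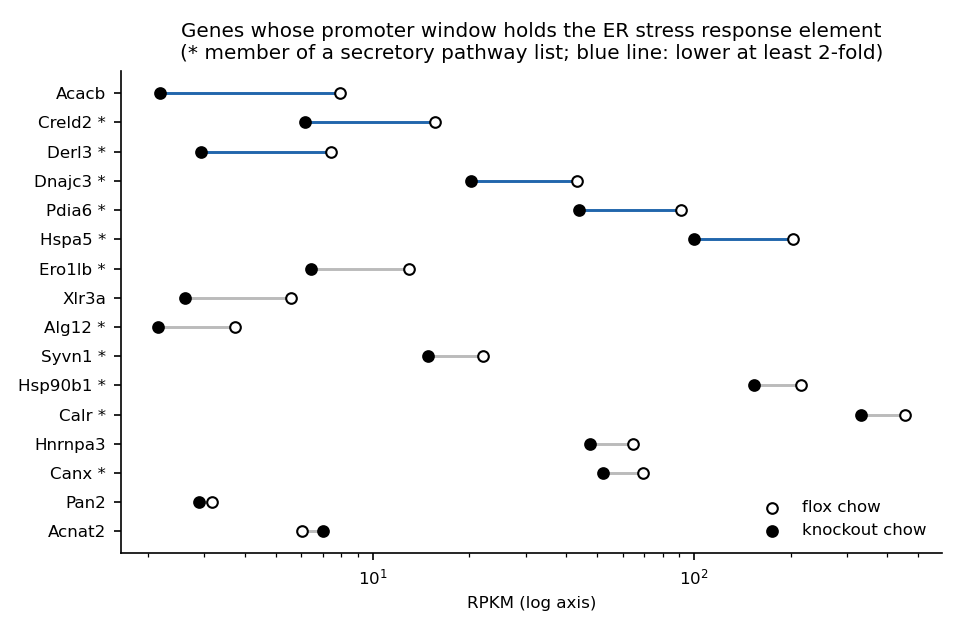
RPKM on a log axis in flox (open circles) and knockout livers (filled circles) on chow for the 16 genes whose RefSeq promoter window holds the ERSE, 1 value per group, with a blue line for genes lower at least 2-fold and a star for members of the ER lists. The filled circle lies to the left in 15 of 16 genes, with the widest gap in Acacb (7.92 and 2.18 RPKM, -1.49) and the narrowest of these in Pan2 (-0.10), and to the right in Acnat2.

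Most genes that encode sensors and regulators of the other branches of the unfolded protein response did not pass the threshold. These values are mRNA levels, and the activity of the branches was not measured. In the list of sensors and transcription factors, Xbp1 was the 1 faller among 11, and 8 were lower by any amount (median -0.14). Atf6, which encodes the ER membrane-bound factor of a parallel branch, was at 8.09 and 7.23 RPKM (-0.14). Eif2ak3, the gene of the third sensor PERK, was at 2.92 and 1.36 RPKM (-0.73), and Creb3l2 at 2.97 and 1.29 RPKM (-0.79). Before the added 1 RPKM, their knockout values were 46.7% and 43.4% of flox. Of 16 genes of eIF2alpha phosphorylation and the CHOP branch, which is downstream of PERK, 0 rose and 1 fell (median 0.02). The faller was Ppp1r15b, a subunit of the phosphatase that reverses eIF2alpha phosphorylation (15.1 and 6.72 RPKM, -1.06). Atf4 was at 41.5 and 38.3 RPKM (-0.11), and Ddit3, which encodes CHOP, at 4.23 and 5.78 RPKM (0.37).

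Asparagine synthetase, a known target of ATF4, rose further than any gene but Tff3. Asns went from 4.02 RPKM in flox livers to 44.0 RPKM in the knockout, 11-fold higher before any pseudocount (log2 change 3.17). The rest of its list of asparagine, serine and one-carbon synthesis stayed below the threshold, with a median of 0.07 over 11 genes, and Psat1 of serine synthesis came nearest (0.341 and 1.45 RPKM, 0.87). None of 20 cytosolic tRNA synthetase genes and none of 8 amino acid transporter genes passed, and these lists also hold ATF4 targets. Over all genes 1.42% fell and 0.262% rose, so a 0 in a list of this size is near those shares. Under 1 RPKM in both groups, and so not compared, were 5 of 13 transporter genes, such as Slc7a11, and 7 of 18 genes of the synthesis list, such as Phgdh. Among 16 NRF2 targets, 19 glutathione transferases, 17 genes of p53, cell cycle and cell death, 13 immediate early genes and 13 heat shock chaperones outside the ER, 0 passed, with medians between -0.08 and 0.13. The glutathione transferase and heat shock medians changed sign under the rescaling to equal sums.

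The carboxylesterase 1 family fell as a block. All 6 compared members, neighbours on the minus strand of chromosome 8 between 93056728 and 93337308, fell, with a median of -3.20. Enzymes of this family hydrolyse esters, some of them triglycerides, and where their proteins reside was not examined. Ces1c, the most abundant, went from 1115 RPKM in flox livers to 114 RPKM in the knockout (log2 change -3.28). Ces1d went from 271 to 30.3 RPKM (-3.12), and Ces1f from 246 to 42.9 RPKM (-2.49). Ces1g (84.1 and 7.56 RPKM, -3.31), Ces1e (66.5 and 5.88 RPKM, -3.29) and Ces1b (24.3 and 4.42 RPKM, -2.22) completed the family. Summed over the family, which does not depend on how reads are divided among near-identical copies within it, the level went from 1807 to 205 RPKM. Carboxylesterases of the other families were closer to flox: 1 of 8 fell, Ces2a (155 and 60.5 RPKM, -1.34), and Ces3a, as abundant as Ces1c in flox livers, was at 1241 and 1114 RPKM (-0.16).

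Genes reported elsewhere as mRNAs cut by IRE1 overlapped with these. Of 17 such genes compared, 12 fell, with a median of -1.77, beside 1.42% falls and a median of -0.02 over all genes. However, the list was drawn in part from work on Xbp1-deficient liver, and 5 of its 12 fallers are Ces1 genes. Retsat, Erp44 and Galnt2 were also removed from the list after values were seen. For these reasons its direction and its count of falls are not independent evidence. Bloc1s1, the substrate seen in many cell types and also called Blos1, went from 76.5 to 18.3 RPKM (-2.004), and Hgsnat, a lysosomal acetyltransferase gene, from 18.1 to 4.61 RPKM (-1.77). Cyp1a2 (453 and 170 RPKM, -1.41) and Cyp2e1 (4912 and 2138 RPKM, -1.20), drug-metabolising enzymes of the ER, also fell. Members better known from other cell types did not: Sparc was at 25.7 and 26.6 RPKM (0.05), and Pmp22 (0.08), Pdgfrb (0.13) and Col6a1 (0.60) were low in liver.

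Lipid synthesis was lower in several of its steps. Of 18 genes of fatty acid synthesis and its regulators 6 fell and 0 rose (median -0.42). Srebf1, which encodes the transcription factor SREBP1, went from 79.7 to 35.2 RPKM (-1.16), and Thrsp, a lipogenic regulator, from 484 to 202 RPKM (-1.26). Among enzymes that make or use acetyl-CoA and malonyl-CoA, Acly went from 65.3 to 31.9 RPKM (-1.01), Acss2 from 93.9 to 41.0 RPKM (-1.18), Acacb from 7.92 to 2.18 RPKM (-1.49) and Fasn from 56.1 to 21.4 RPKM (-1.35). Acaca, the cytosolic acetyl-CoA carboxylase of fatty acid synthesis, did not pass (8.93 and 6.00 RPKM, -0.50). Mlxipl, the gene of the carbohydrate-response factor ChREBP, was at 40.9 and 41.0 RPKM (0.00), and Pparg was higher but did not pass (7.40 and 13.8 RPKM, 0.82).

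Desaturation and triglyceride assembly each had a large fall. Scd1, the main hepatic stearoyl-CoA desaturase, went from 929 to 264 RPKM (-1.81), while the low Scd2 rose from 0.723 to 3.17 RPKM (1.27), and the remaining 11 desaturase and elongase genes did not pass. Dgat2, which completes triglycerides (chromosome 7, 99153658 to 99182719, minus strand), went from 239 to 37.3 RPKM (-2.65). It was the 1 faller among 15 genes of triglyceride synthesis, and Dgat1, which catalyses the same reaction, was at 8.88 and 9.41 RPKM (0.08). None of 14 phospholipid synthesis genes passed.

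All 20 genes of cholesterol synthesis were lower, with a median of -0.62. Of these 1 fell, while Fdps, which makes farnesyl diphosphate (261 and 132 RPKM, -0.98), and Cyp51, a sterol demethylase (45.2 and 23.9 RPKM, -0.89), did not pass. Insig1, a sterol-responsive brake on SREBP processing, fell from 120 to 53.5 RPKM (-1.16). In the list of lipoprotein receptors, lipases and related secreted proteins 3 of 15 fell, among them Lrp1, an endocytic receptor of remnant particles (32.5 and 11.3 RPKM, -1.44), and Furin, a protease that processes secreted proteins (47.4 and 18.8 RPKM, -1.29). None of 18 apolipoprotein and assembly genes passed, though 17 were lower (median -0.25). Apob was at 227 and 151 RPKM (-0.59) and Mttp, which loads lipid onto it, at 76.5 and 69.5 RPKM (-0.14).

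Genes of fatty acid oxidation stayed near their flox level as a set. Of 30 genes of oxidation and PPARA targets 1 fell, the bile acid and very long chain acyl-CoA ligase Slc27a5 (292 and 136 RPKM, -1.09), and the median was 0.02. Among 10 Cyp4 genes, enzymes of omega-oxidation, Cyp4a10 (145 and 30.2 RPKM, -2.23) and Cyp4a12b (57.2 and 20 RPKM, -1.47) fell. The 16 lists grouped under lipids, which include the reported IRE1 substrates, held 27 falls and 1 rise among 238 genes (median -0.22). Over all genes there were 1.42% falls, 0.262% rises and a median of -0.02. Bloc1s1, Hgsnat, Cyp1a2 and Cyp2e1 count among the 27 falls only through the IRE1 list and are not lipid synthesis genes. Cyp1a2 and Cyp2e1 are also counted in the metabolic lists below.

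**Figure D4:**
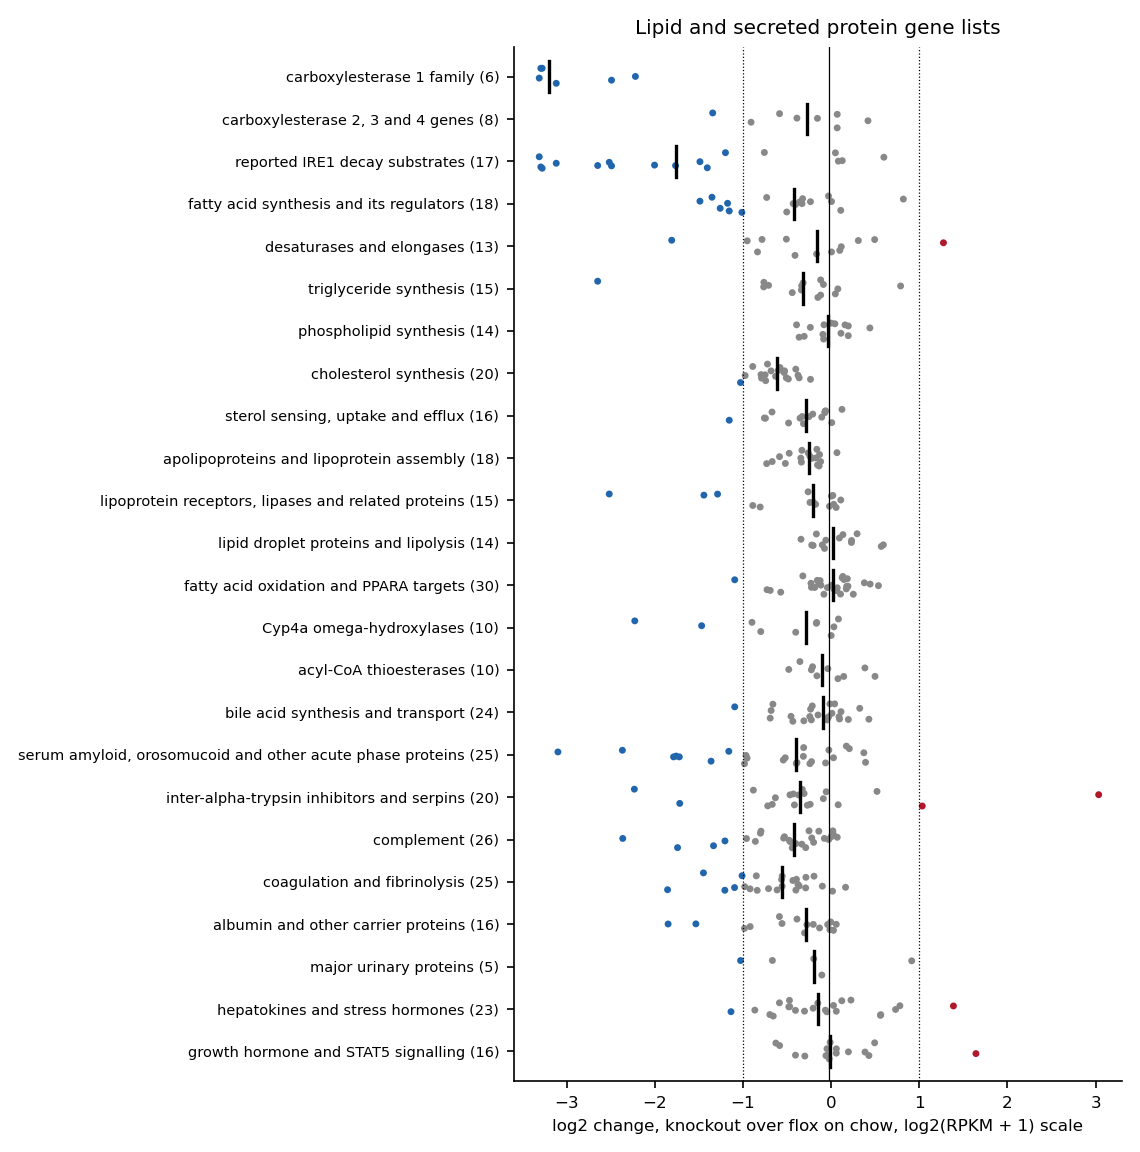
Each point is the log2 change (knockout over flox on chow) of a gene, by lipid or secreted protein list, with the number of genes compared in brackets. The lipid lists include the reported IRE1 substrates. Thick bars mark list medians, dotted lines 2-fold and a thin line the median of all genes. All 6 carboxylesterase 1 genes lie left of -2, the 20 cholesterol synthesis genes form a narrow band left of 0, and Serpina7 (3.04) is the farthest point to the right.

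Genes for secreted plasma proteins were lower in several classes. The 8 lists on secreted proteins and hormones held 22 falls and 4 rises among 149 genes, with a median of -0.33, against 1.42% falls and 0.262% rises over all 9929 genes. In the acute phase list 7 of 25 genes fell (median -0.40). The serum amyloid genes led it, with Saa2 going from 1699 RPKM in flox livers to 197 RPKM in the knockout (-3.10) and Saa1 from 2201 to 425 RPKM (-2.37). Orm1, an orosomucoid gene, went from 1921 to 567 RPKM (-1.76), Lrg1 from 641 to 193 RPKM (-1.72) and the siderophore-binding Lcn2 from 94.2 to 26.6 RPKM (-1.79). Other members of the class did not follow: Saa3 was at 20 and 26.2 RPKM (0.37), Lbp at 33.4 and 38.7 RPKM (0.21) and Stat3, the factor that acts downstream of IL-6, at 20.8 and 20.4 RPKM (-0.03).

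Of 26 complement genes 4 fell (median -0.42): Hc, which encodes C5 (146 and 27.6 RPKM, -2.36), Clu (1196 and 356 RPKM, -1.74), C3 (949 and 376 RPKM, -1.33) and C8a (188 and 80.9 RPKM, -1.20). Coagulation had the lowest median of the secreted lists (-0.56), with 23 of 25 genes lower and 5 falls. Among these, Proc, the gene of the anticoagulant protein C, went from 283 to 77.4 RPKM (-1.86), F7 from 41.6 to 14.6 RPKM (-1.45) and the prothrombin gene F2 from 666 to 288 RPKM (-1.21). Fibrinogen genes lay nearby without passing, with Fga at 1152 and 589 RPKM (-0.97) and Fgb at 1770 and 1426 RPKM (-0.31). Of 20 inter-alpha-trypsin inhibitor and serpin genes 2 fell and 2 rose (median -0.35). Itih4 went from 668 to 141 RPKM (-2.23) and Serping1, the C1 inhibitor gene, from 306 to 92.4 RPKM (-1.72), while Serpina7 (10.2 and 91.2 RPKM, 3.04) and Serpine2 (4.14 and 9.51 RPKM, 1.03) rose. Azgp1 (1075 and 298 RPKM, -1.85) and Afm (106 and 35.9 RPKM, -1.53) were the 2 fallers among 16 carrier proteins, of which 14 were lower (median -0.29). Abundant members differed. Rbp4 (2892 and 2863 RPKM, -0.01) and Ahsg (4489 and 4572 RPKM, 0.03) stood near flox, while Hp (2339 and 1182 RPKM, -0.98) was lower without passing.

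Metabolic genes of the hepatocyte outside lipid pathways were lower in fewer places. Of 169 such genes in 9 lists 8 fell and 2 rose (median -0.16), beside 1.42% falls and 0.262% rises over all genes. Among all genes from 100 RPKM upwards 4.79% fell, and whether these lists differ from genes of like level was not tested. Retsat, the ER enzyme retinol saturase (chromosome 6, 72598475 to 72608425, plus strand), went from 129 to 15.6 RPKM (-2.97) and was the 1 faller among 21 retinoid genes. Of 30 genes of cytochrome P450 families 1 and 2, which are ER enzymes, 5 fell and 1 rose (median -0.39). The fallers were Cyp1a2, Cyp2e1, Cyp2c67 (229 and 39.0 RPKM, -2.52), Cyp2c68 (-1.49) and Cyp2c40 (-1.75), and reads of the Cyp2c genes can be split between near-identical copies. In iron handling, Tmprss6, a protease that restrains hepcidin (110 and 35.8 RPKM, -1.60), and Hamp2 (139 and 46.5 RPKM, -1.56) fell, while the hepcidin gene Hamp did not pass (7123 and 5105 RPKM, -0.48). Gluconeogenesis (19 genes), fructose metabolism (8 genes) and the urea cycle with amino acid breakdown (26 genes) had 0 genes past the threshold, as had 21 hepatocyte transcription factors.

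Some of the larger falls belonged to none of the 72 lists, and those named here beyond the fixed naming rule were chosen after their values were seen. Gjb1, the gap junction protein connexin 32, went from 493 to 133 RPKM (-1.88), and Ptprf, a receptor tyrosine phosphatase, from 20.1 to 4.08 RPKM (-2.05). The uncharacterised 2210411K11Rik went from 20.4 to 2.03 RPKM (-2.82), Ccbl2, a transaminase gene, from 55.7 to 10.1 RPKM (-2.35) and Fam134c, an ER-shaping protein gene, from 22.8 to 3.94 RPKM (-2.27). Tapbp, which encodes tapasin, went from 30.5 to 12.9 RPKM (-1.18), and the class I gene H2-T23 from 101 to 44.5 RPKM (-1.16). Lamp1, a membrane protein gene of lysosomes, went from 243 to 71.4 RPKM (-1.75). It was the 1 faller in a list of 33 lysosome and autophagy genes, of which 19 were lower and 14 higher (median -0.04). That list is not the whole class. Lysosomal genes outside it also fell, among them Hgsnat (-1.77), Gm2a (30.8 and 13.4 RPKM, -1.14) and Tpp1 (28.0 and 12.5 RPKM, -1.10). Ndufa9 (71.2 and 29.2 RPKM, -1.26) was the 1 faller among 40 respiratory chain genes, whose median was 0.05.

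The 26 risers were few and of mixed kinds. Tff3, a secreted trefoil peptide of mucosal surfaces (chromosome 17, 31125306 to 31129646, minus strand), went from 3.27 RPKM in flox livers to 68.9 RPKM in the knockout (4.03). Serpina7, which encodes thyroxine-binding globulin (chromosome X, 139079257 to 139085236, minus strand), went from 10.2 to 91.2 RPKM (3.04), opposite in direction to the 119 of 149 genes of the secreted lists that were lower. Next came Cav1, the caveolin gene (1.13 and 10.8 RPKM, 2.47), and the chemokine Cxcl14 (0.727 and 5.71 RPKM, 1.96). Signalling and metabolic genes followed. Socs2, a feedback inhibitor of growth hormone signalling, went from 3.48 to 13 RPKM (1.64), the metallothionein Mt2 from 21.7 to 64.4 RPKM (1.52), and Csad, an enzyme of taurine synthesis, from 61.2 to 162 RPKM (1.39). The hormone gene Fgf21 rose from 0.174 to 2.07 RPKM (1.39) and stayed low. Rpph1, the RNA of ribonuclease P, went from 9.31 to 78.6 RPKM (2.95) and is a small RNA gene.

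Markers of other cell types were checked because several risers are expressed outside hepatocytes. Of 17 cholangiocyte and ductular markers 6 could be compared, 0 passed and 5 were higher. The summed level of all 17 was 36.6 RPKM in flox livers and 59.9 RPKM in the knockout, mainly from Spp1 (19.7 and 39.4 RPKM, 0.97). Krt7, Krt19 and Epcam were under 1 RPKM in both groups. All 21 macrophage markers summed to 315 and 314 RPKM (17 compared, 0 past the threshold). All 18 endothelial markers summed to 145 and 148 RPKM (16 compared). Among the endothelial markers Cav1 alone passed, with Pecam1 at 4.33 and 4.53 RPKM and Cdh5 at 5.01 and 5.10 RPKM. Of 22 stellate cell and matrix genes 18 were higher by any amount (median 0.24), 0 rose and 1 fell, the fibronectin gene Fn1 (119 and 36.5 RPKM, -1.68), which hepatocytes also make. Red blood cell genes summed to 1301 and 1840 RPKM over 7 entries (5 compared, 0 past the threshold). Of the pancreas, gut and gall bladder list, 16 of 20 entries were under 1 RPKM, among them Tff1, Tff2, Muc6 and Vil1, and of the 4 compared Tff3 rose and Fabp2, an intestinal-type fatty acid binding protein gene, fell (61.3 and 29.1 RPKM, -1.05). What these cell types contributed to the rises was not tested.

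The zones of the liver lobule lay on different sides of 0. Of 15 genes of hepatocytes around the central vein 10 were higher by any amount (median 0.14), such as the glutamine synthetase gene Glul (390 and 517 RPKM, 0.40), while Cyp2e1 and Cyp1a2 were the 2 that fell. Of 14 periportal genes 0 passed, 11 were lower and 3 higher (median -0.25), where 55.2% of all genes compared were lower. The 2 largest changes went opposite ways, Cyp2f2 at 961 and 492 RPKM (-0.96) and Pck1 at 422 and 711 RPKM (0.75).

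The same genes were read in the 4 libraries from the high-fat diet, which share no library with the chow groups. In that comparison 192 of 10224 genes fell (1.88%) and 111 rose (1.09%), with a median of -0.13. Of the 140 chow fallers compared on both diets, 83 fell on the high-fat diet too, which is 59.3% of them and 44.4% of the 187 high-fat fallers, and 132 were lower by any amount. The remaining chow faller, Scd1, was listed at 0 in flox livers on the high-fat diet and left out there. Of the 26 risers 18 rose again, 69.2% of them and 20.2% of the 89 high-fat risers. The median change of the chow fallers was -1.36 on chow and -1.14 on the high-fat diet, and that of the risers 1.37 and 1.34. Across the 9824 genes compared on both diets Pearson's r of the changes was 0.63, as a description, since genes are not independent replicates.

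Many of the largest chow changes passed the threshold on the high-fat diet as well. There, Ces1d was at 299 RPKM in flox livers and 42.6 RPKM in the knockout (log2 change -2.78, against -3.12 on chow), Dgat2 at 238 and 46.8 RPKM (-2.32, against -2.65) and Retsat at 152 and 27.5 RPKM (-2.42, against -2.97). Tff3 was at 6.51 and 85.0 RPKM (3.52), Serpina7 at 22.1 and 192 RPKM (3.06), and Asns at 1.82 and 17.9 RPKM (2.74). All 6 carboxylesterase 1 genes fell on both diets, with a family median of -3.20 on chow and -2.39 on the high-fat diet, and Ces1g had -3.31 and -2.13.

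Other changes differed in size or direction between the diets, and no difference between the diets was tested. Serum amyloid was the plainest case: Saa2 was at 1433 and 1613 RPKM in flox and knockout (0.17, against -3.10 on chow) and Saa1 at 2022 and 1498 RPKM (-0.43, against -2.37). Lcn2 was higher in the knockout on that diet (98.1 and 184 RPKM, 0.90, against -1.79 on chow). Among ER genes, Hspa5 was at 181 and 136 RPKM (-0.41, against -1.02), and Derl3 was higher in the knockout (4.82 and 9.95 RPKM, 0.91, against -1.10). In the ER chaperone list 2 of 15 genes fell on the high-fat diet (median -0.81), compared with 9 on chow (median -1.06). Cholesterol synthesis had a median of -0.62 on chow and 0.43 on the high-fat diet, where 4 of the 20 genes rose and 0 fell. Fatty acid synthesis had a median of -0.42 on chow and -0.33 on the high-fat diet, where 2 of 18 genes fell, Srebf1 (143 and 32.4 RPKM, -2.11, against -1.16 on chow) and Thrsp (-1.18, against -1.26). Its enzymes that fell on chow did not pass there, with Fasn at 41.4 and 25.2 RPKM (-0.70), Acly at 37.1 and 34.4 RPKM (-0.11), Acacb at 4.46 and 4.69 RPKM (0.06) and Acss2 at 28.9 and 32.8 RPKM (0.18). Among risers, Cyp2a4 went from 2.24 to 7.87 RPKM on chow (1.45) and from 2.38 to 80.3 RPKM on the high-fat diet (4.59), and Rgs16, at 10.2 and 27.9 RPKM on chow (1.36), was at 38.7 and 29.2 RPKM (-0.40).

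**Figure D5:**
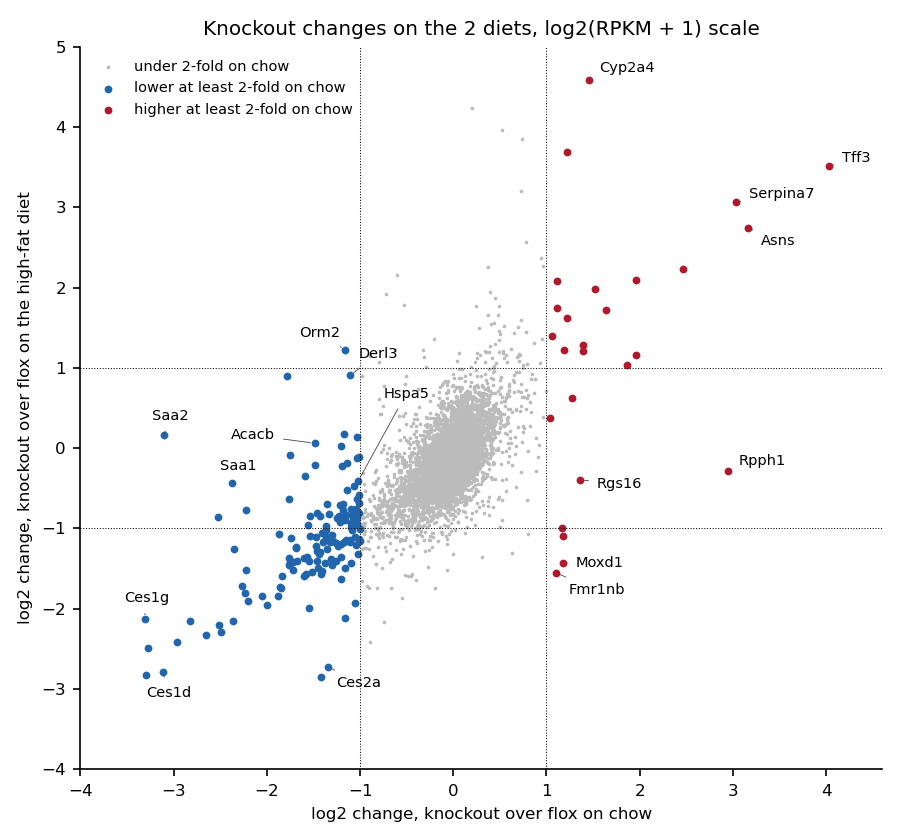
Each point is 1 of 9824 genes, with its log2 change (knockout over flox, log2(RPKM + 1) scale) on chow on the x axis and on the high-fat diet on the y axis, 1 deposited value per group, and dotted lines at 2-fold. Most blue points (genes that fell on chow) lie below 0 on the y axis as well, 132 of 140, while Saa2, Orm2 and Derl3 lie above it, and 18 of the 26 red points are past 2-fold on both axes.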

How the data were processed

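Liver RNA was sequenced from pools of mice. The deposited values are RPKM, computed by the authors per the file headers, with 1 file and 1 value per gene for each group. TopHat2 2.0.7, Cuffdiff 2.1.1 and mm10 come from the submitters' processing notes, which as held here state neither roles nor order. How the 2 libraries per group became 1 value, the scaling and the annotation are all not given in the sources used here. Depth is unknown, so no interval is given. Files were assigned to groups by the part of the sample titles in their names. Rows with a repeated symbol (158 of 22923 symbols) were summed, and comma-joined symbols were kept as 1 entry.

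Genes with at least 1 RPKM in either group and not listed at 0 in either were compared as log2((knockout + 1)/(flox + 1)), with a threshold of 1 on that scale. There was no test. The members and the 72 gene lists were chosen with earlier results of these data known, and 3 genes (Retsat, Erp44 and Galnt2) were removed from the list of IRE1 decay substrates after values were seen. Genes were named by a rule: Xbp1, Ern1, Hspa5, Atf4 and Ddit3, the 15 largest rises and 15 largest falls with at least 5 RPKM in a group outside small RNAs, list members past the threshold with at least 5 RPKM, the 3 largest changes of each list, and the 3 genes on each side of the threshold with at least 20 RPKM. Other genes are named as contrasts or because they stand out, and were chosen after their values were seen. Some list members are not reported here.

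Coordinates came from GENCODE M21 (GRCm38, the assembly of mm10) and promoters from RefSeq (GRCm38.p6), matched by symbol for 80.3% of the genes compared. Calculations used Python 3.11.15, numpy 2.4.6, pandas 2.3.3 and matplotlib 3.10.9, and the steps were tested on simulated data. The alternatives were pseudocounts of 0.1 and 5 RPKM, no filter, a filter of 5 RPKM, a 1.5-fold threshold, the highest of repeated rows, rescaling to a median log2 ratio of 0 or to equal sums without the 50 most abundant genes, keeping genes listed at 0, and leaving out small RNA genes.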

Additional observations from a re-analysis of the deposited data

Results flagged for a closer look

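In 4 genes the knockout change passed 2-fold on both diets in opposite directions. The difference between the diets was not tested, since each group has 1 value. Moxd1, a monooxygenase-related gene, had a log2 change of 1.18 on chow (8.41 RPKM in flox and 20.3 RPKM in knockout) and -1.43 on the high-fat diet (12.3 and 3.95 RPKM). Orm2, an orosomucoid gene with near-identical copies, had -1.16 on chow (143 and 63.4 RPKM) and 1.23 on the high-fat diet (141 and 332 RPKM). Fmr1nb was low in all groups, with 1.10 on chow (0.423 and 2.06 RPKM) and -1.56 on the high-fat diet (2.59 and 0.222 RPKM). Rprl3, a ribonuclease P RNA-like gene, had 1.18 on chow (2.77 and 7.53 RPKM) and -1.10 on the high-fat diet (6.31 and 2.41 RPKM).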

How the results depend on the processing

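No paired analysis was possible because each group has 1 deposited value, and for the same reason no library could be left out. As reported, 26 genes rose and 141 fell. The falls included 25 ER genes, 27 genes of the lipid lists with the IRE1 substrates, 22 genes of the secreted protein lists and 6 genes with the ERSE. In addition, 1 stress gene rose, and 83 genes fell and 18 rose on both diets. With a pseudocount of 0.1 RPKM 65 genes rose, 4 of them in stress lists, and 42 rose on both diets. With a pseudocount of 5 RPKM 9 genes rose, 87 fell, 12 ER genes and 0 genes with the ERSE fell, and 7 rose on both diets. A filter of 5 RPKM left 16 rises and 10 on both diets. At 1.5-fold 111 genes rose and 394 fell. The falls included 60 ER genes, 61 genes of the same lipid lists and 47 secreted protein genes. There, 7 stress genes rose, 298 genes fell on both diets and 64 rose on both. Rescaling to equal sums left 13 ER falls, 2 stress rises, 51 falls on both diets and 2 falls with the ERSE. The other 68 of 90 counts over results and alternatives stayed within 1.5 times the reported count. For the 246 named genes, 2094 of 2178 values stayed on the same side of the 2-fold threshold, whatever their change in size, and 84 crossed it. Among named genes past the threshold as reported, 0 values reversed in sign, and sign changes of the others were not counted. The medians of 15 lists changed sign under a rescaling, all of them within 0.14 of 0. Depth is unknown, so the precision of low genes cannot be given.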
